A study of Drosophila melanogaster with 12 samples.

Results

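The genes described here are fruitless (fru), doublesex (dsx), transformer (tra), Sex-lethal (Sxl) and intersex (ix), 5 genes of the sex determination cascade of Drosophila melanogaster, taken by symbol from a table of 15423 genes. They were measured by 3' RNA-seq (digital gene expression, DGE) of fly heads in 4 groups of 3 libraries, which are ADAR hypomorph flies of 29°C and of 18°C, and WT flies of the same temperatures. The flies were grown at these temperatures and collected 3 to 6 days after eclosion, and the study asked whether ADAR, the enzyme that edits adenosine to inosine in RNA, takes part in the response of the transcriptome to temperature. The hypomorph is a strain with lowered ADAR function, described in the study's results as carrying a transposon within an intron of Adar and named Adar5G1 in its methods. The study's discussion, however, speaks of ADAR5G1 flies apart from the hypomorph, so the name of the allele is not settled here. A single strain stands for each genotype, so that the allele and any other difference between the strains cannot be told apart. The labels do not give the sex of the flies, and nothing in them says that the libraries of a group came from separate cultures, so that p-values measure only the spread between these libraries, which may be technical.

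In flies the cascade starts from the dose of X chromosomes. Sxl, an RNA-binding protein made in females, keeps its own mRNA in the female splice form and steers tra pre-mRNA to the form that encodes a full protein. Tra protein, with its partner Tra2, then directs the female splicing of dsx and of the transcripts from the first fru promoter. Male and female Dsx proteins are transcription factors that control sexual differentiation and sex-specific genes of the body and nervous system. Male Fru proteins, zinc-finger transcription factors of the BTB family, specify the neurons of courtship. ix encodes a Mediator subunit that acts with female Dsx. Most of this control is exerted through splicing, whereas 3' reads count all transcripts of a gene together, so the values below are total mRNA levels and say nothing of the share of male and female forms. In the Ensembl annotation fru has 15 transcripts with 7 distinct starts and 6 distinct ends, dsx has 7 transcripts with 2 starts and 3 ends, and Sxl has 25 transcripts with 4 starts and 6 ends. tra has 2 annotated transcripts that share 1 start and 1 end, and ix has 1 transcript. The files give no positions, and their build (dm3) is not that of the annotation used here (dm6), so only the chromosomes are given, which are 3R for fru and dsx, 3L for tra, X for Sxl and 2R for ix.

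The libraries held 4409119 to 8806472 counts. Levels are given as CPM, counts scaled to libraries of equal size after TMM normalization, and 1 CPM stood for 4.56 to 8.60 counts. All 5 genes passed the filter on low counts that left 9553 genes, and none had fewer than 34 counts in a library. Adar itself was at 24.6, 23.5 and 21.7 CPM in ADAR hypomorph flies and at 37.3, 39.5 and 42.3 CPM in WT flies at 29°C (library without a replicate number, replicate 2 and replicate 3, the order used throughout), with a log2 fold change of -0.77 (adjusted p = 0.000859 by edgeR). At 18°C Adar was at 37.7, 22.5 and 28.0 CPM in ADAR hypomorph flies and at 40.2, 40.9 and 35.2 CPM in WT flies, and the unnumbered ADAR hypomorph library lay inside the WT range (log2 fold change -0.41, adjusted p = 0.0424 by edgeR). That library was also the shallowest of the 12 and, as given below, held the highest fru and the lowest tra level of all. WT replicate 2 at 29°C stood apart in having 12905 genes detected, against 10957 to 11815 in the other 11 libraries. It also held 129 counts of SP, a sex peptide gene of the male accessory gland, against at most 7 in the libraries of the other groups. Within WT flies at 29°C SP ran from 0 to 17.7 CPM. The median there, 2.35 CPM, was also above the largest value of the other groups, 0.814 CPM. Markers of neurons, glia, photoreceptors and fat body were all detected in every group, and of the 5 ovary and testis markers vas, nos, bam and Cp36 had at most 4 counts in any library.

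The gene that differed most between the strains was fru. In ADAR hypomorph flies at 29°C it was at 19.2, 15.6 and 18.9 CPM, against 9.70, 9.47 and 11.6 CPM in WT flies at 29°C. At 18°C its level was 30.1, 22.9 and 23.1 CPM in ADAR hypomorph flies and 19.3, 17.2 and 18.9 CPM in WT flies. Every ADAR hypomorph library was above every WT library of the same temperature. The level was 1.74-fold higher in ADAR hypomorph flies at 29°C (95% interval 1.41 to 2.14, log2 fold change 0.80, standard error 0.14, adjusted p = 0.000804 by edgeR's quasi-likelihood F test, Benjamini-Hochberg adjusted over all genes). At 18°C it was 1.36-fold higher (95% interval 1.11 to 1.67, log2 fold change 0.45, standard error 0.14, adjusted p = 0.0241 by the same edgeR test). fru was the only one of the 5 genes called in either strain comparison at an adjusted p under 0.05, where 19.0% of all genes were called at 29°C and 26.2% at 18°C. Counted by direction, genes called higher in ADAR hypomorph flies made up 8.81% of all at 29°C and 11.6% at 18°C. Groups without overlap, in either direction, were seen in 1 of the 5 genes at 29°C and 2 at 18°C, beside 35.9% and 38.3% of all genes.

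**Figure D1:**
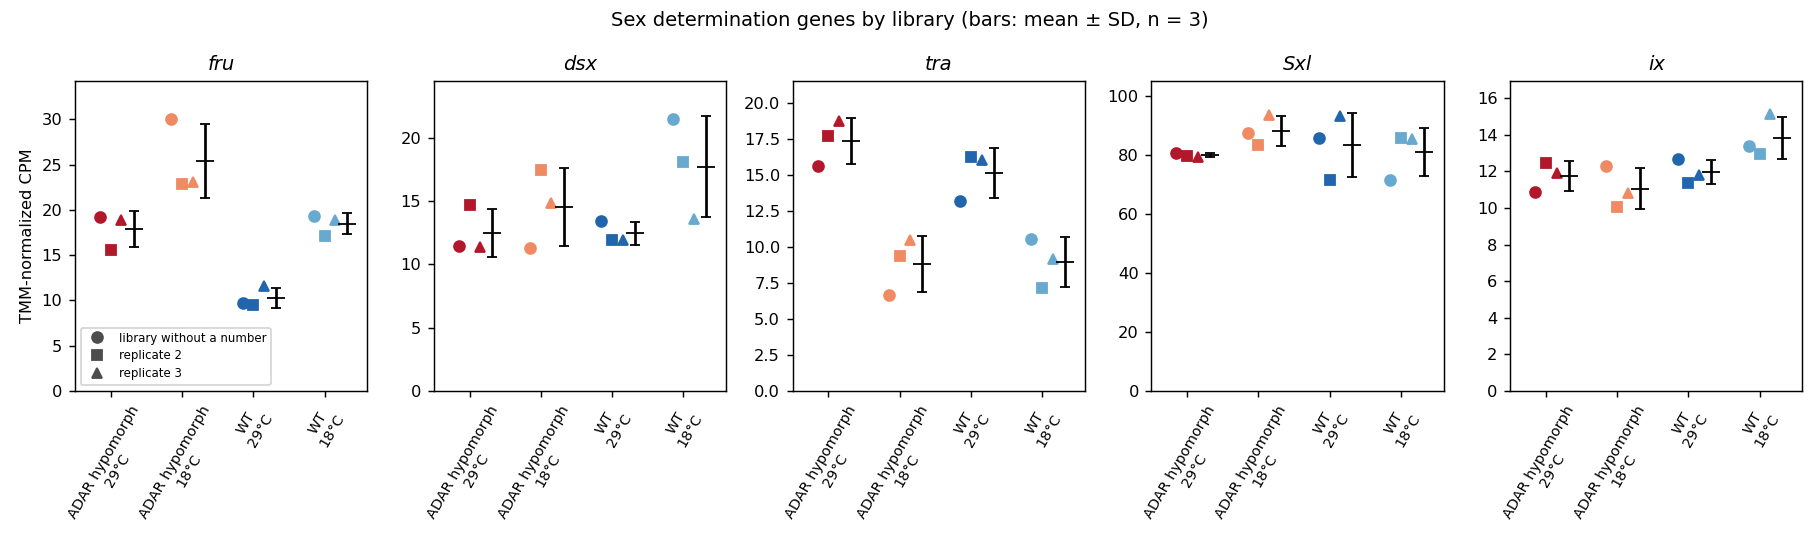
Levels of fru, dsx, tra, Sxl and ix in TMM-normalized CPM (y axes, each from 0) in the 12 libraries, by group on the x axis, with circles for the libraries without a number, squares for replicate 2, triangles for replicate 3 and bars for the mean ± SD (n = 3). The 3 ADAR hypomorph libraries of fru lie above the 3 WT libraries at each temperature, and tra separates by temperature in both strains.

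The call for fru at 18°C was lost without the unnumbered ADAR hypomorph library at 18°C (log2 fold change 0.31, adjusted p = 0.125 by edgeR's test), without WT replicate 2 at 18°C (0.40, adjusted p = 0.0882) and without WT replicate 3 at 18°C (0.46, adjusted p = 0.0566), each in the same edgeR model. The call at 29°C was kept in all 20 alternatives that used the adjusted p alone, with log2 fold changes of 0.70 to 0.90. Of the 20 alternatives of each comparison, 12 left out 1 library of any group. Part of these dropped a library outside the comparison and so kept every library compared.

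The level of fru also moved with temperature, in both strains. The values above give 17.9 ± 2.01 CPM at 29°C and 25.4 ± 4.08 CPM at 18°C in ADAR hypomorph flies, and 10.2 ± 1.14 CPM at 29°C and 18.5 ± 1.14 CPM at 18°C in WT flies (SD, n = 3 each). The libraries at 29°C lay below those at 18°C in each strain without overlap. In WT flies fru at 29°C was at 0.557 of its level at 18°C, a fall of 44.3% (log2 fold change -0.84, standard error 0.15, adjusted p = 0.000381 by edgeR's quasi-likelihood F test, Benjamini-Hochberg adjusted). In ADAR hypomorph flies it was at 0.709 of its level at 18°C (log2 fold change -0.50, standard error 0.13, adjusted p = 0.0101 by the same edgeR test). In ADAR hypomorph flies the call was lost without replicate 2 at 29°C (log2 fold change -0.40, adjusted p = 0.0502 by edgeR) and without the unnumbered library at 18°C (-0.37, adjusted p = 0.0540). The temperature responses of the strains differed by 0.35 on the log2 scale (95% interval -0.07 to 0.77, adjusted p = 0.460 by edgeR's test of the difference), so that a smaller response in ADAR hypomorph flies was not shown. In order of level the groups ran from ADAR hypomorph flies at 18°C, through WT flies at 18°C and ADAR hypomorph flies at 29°C, whose libraries overlapped, to WT flies at 29°C. These overlapping groups differ in both strain and temperature and were not tested against each other.

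tra, the splicing regulator between Sxl and its targets, also moved with temperature in both strains, in the direction opposite to fru. In ADAR hypomorph flies it was at 15.6, 17.7 and 18.7 CPM at 29°C and at 6.64, 9.33 and 10.4 CPM at 18°C. In WT flies it was at 13.1, 16.2 and 16.01 CPM at 29°C and at 10.5, 7.12 and 9.17 CPM at 18°C. All 6 libraries at 29°C were above all 6 libraries at 18°C, across both strains. The level at 29°C was 1.93-fold that at 18°C in ADAR hypomorph flies (95% interval 1.50 to 2.50, log2 fold change 0.95, standard error 0.17, adjusted p = 0.000558 by edgeR's quasi-likelihood F test, Benjamini-Hochberg adjusted). In WT flies it was 1.70-fold (95% interval 1.30 to 2.22, log2 fold change 0.77, standard error 0.18, adjusted p = 0.00390 by the same edgeR test). Both calls were kept in all 20 alternatives that used the adjusted p alone. The strains were not distinguished in tra, with log2 fold changes between ADAR hypomorph and WT flies of 0.19 at 29°C (95% interval -0.16 to 0.54) and 0.01 at 18°C (-0.39 to 0.41), nor was a difference of their temperature responses detected (0.19, 95% interval -0.35 to 0.72, adjusted p = 0.814 by edgeR).

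fru and tra were thus the 2 of 5 genes called between temperatures in ADAR hypomorph flies, where 32.2% of all genes were called, and again in WT flies, where 33.4% were called. By direction, 16.6% of all genes were called lower at 29°C and 15.6% higher in ADAR hypomorph flies, and 17.3% lower and 16.1% higher in WT flies. With 5 genes, 2 calls are close to these shares. Groups did not overlap in 3 of the 5 genes in ADAR hypomorph flies and 4 in WT flies, beside 45.3% and 44.9% of all genes. From the largest fall at 29°C, fru ranked 1238 of 9553 in ADAR hypomorph flies and 560 in WT flies, and tra ranked 376 from the largest rise in ADAR hypomorph flies and 611 in WT flies. The study's own criterion asks for more than a log2 change of 1 besides an unadjusted p under 0.05, in a fit by DESeq. Here it was applied to the edgeR estimates, and none of the 5 genes met it in any comparison. tra in ADAR hypomorph flies came nearest, with log2 fold changes between temperatures of 0.81 to 1.09 when 1 library was left out. With all libraries the criterion took 6.16% of all genes between temperatures in ADAR hypomorph flies and 7.33% in WT flies. It took 4.72% between the strains at 29°C and 5.51% at 18°C, and 2.52% in the difference of the temperature responses.

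**Figure D2:**
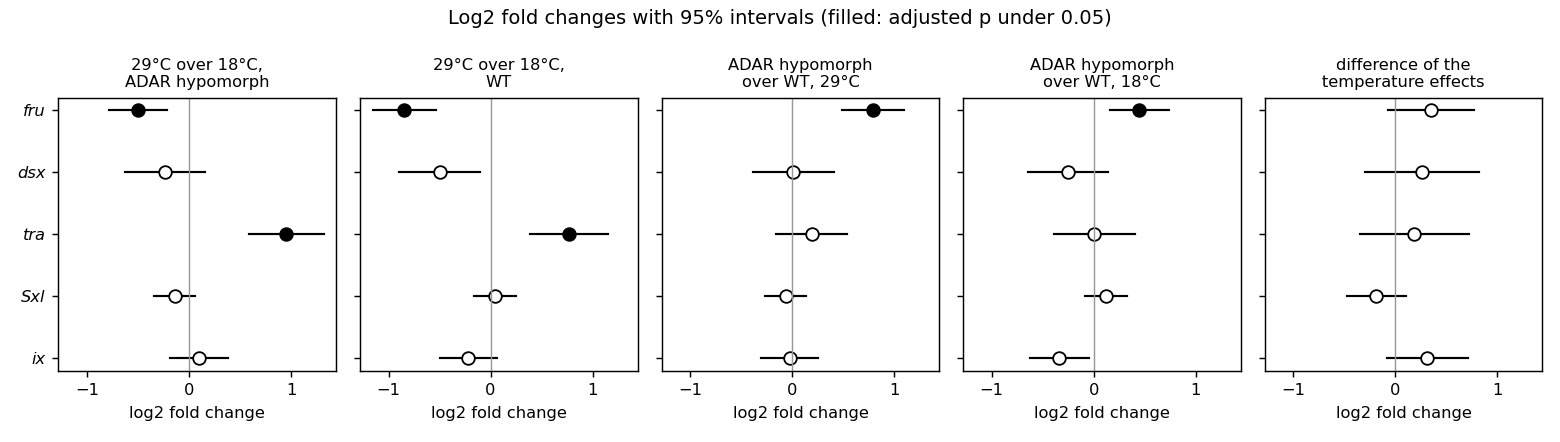
Log2 fold changes of the 5 genes (points) with 95% intervals (bars) for 29°C over 18°C within each strain, for ADAR hypomorph over WT at both temperatures, and for the temperature effect of ADAR hypomorph minus that of WT flies, with filled points for an adjusted p under 0.05. fru is filled in 4 panels and tra in 2, and the intervals of all 5 genes span 0 in the last panel.

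The ratio of fru to tra counts within a library does not depend on the scaling of libraries, and, as follows from their opposite changes, it differed between temperatures by -1.50 on the log2 scale in ADAR hypomorph flies and by -1.62 in WT flies. fru over tra was 0.882 to 1.23 at 29°C and 2.21 to 4.53 at 18°C in ADAR hypomorph flies, and 0.585 to 0.738 at 29°C and 1.83 to 2.41 at 18°C in WT flies. It also separated the strains at 29°C, whereas at 18°C the ranges of the strains overlapped. Over the 12 libraries Pearson's r of fru and tra was -0.58, as a description, since the points share 4 groups and their normalization.

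**Figure D3:**
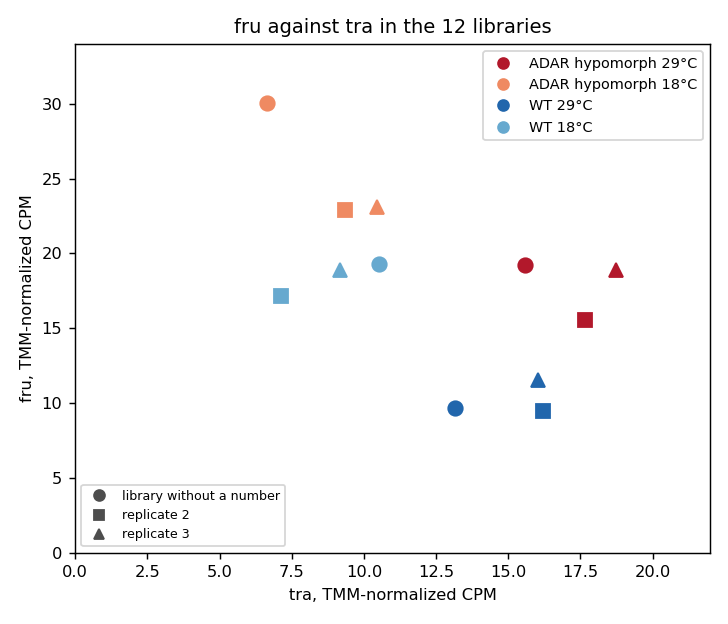
fru (y axis) against tra (x axis), both in TMM-normalized CPM, in the 12 libraries, with colours for the groups and shapes for the replicates. The groups form 2 columns by temperature along tra, with all libraries at 29°C at 13.1 CPM or more and all at 18°C at 10.5 CPM or less, and within each column the ADAR hypomorph libraries are higher in fru.

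Sxl, upstream of tra, was the member whose group means varied least, although its coefficient of variation among WT libraries at 29°C (13.1%) was the largest of the 5 genes in that group. It was at 80.7, 79.6 and 79.5 CPM in ADAR hypomorph flies at 29°C, and at 87.5, 83.4 and 93.5 CPM in ADAR hypomorph flies at 18°C. In WT flies it was at 85.8, 71.7 and 93.2 CPM at 29°C and at 71.5, 85.8 and 85.5 CPM at 18°C. The temperatures did not overlap in ADAR hypomorph flies, and the groups overlapped in the other 3 comparisons. Its log2 fold changes lay between -0.14 (29°C over 18°C in ADAR hypomorph flies, 95% interval -0.34 to 0.06) and 0.12 (ADAR hypomorph over WT flies at 18°C, 95% interval -0.08 to 0.32), and none was called, with adjusted p between 0.283 and 0.768 in edgeR's test. Over these 4 comparisons the 95% intervals of the fold ran between 0.789 and 1.25.

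With Sxl as the denominator, the ratio tra over Sxl was 0.193 to 0.236 at 29°C against 0.0759 to 0.112 at 18°C in ADAR hypomorph flies, and 0.153 to 0.226 against 0.0830 to 0.147 in WT flies. The temperatures did not overlap in either strain. fru over Sxl was 0.196 to 0.238 in ADAR hypomorph flies against 0.113 to 0.132 in WT flies at 29°C, without overlap. At 18°C it was 0.247 to 0.344 in ADAR hypomorph flies against 0.200 to 0.270 in WT flies, which overlapped (exact permutation test, two-sided, p = 0.2, where 0.1 is the smallest that 3 libraries against 3 allow). The strains differed in this ratio by 0.86 on the log2 scale at 29°C and by 0.32 at 18°C.

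dsx, the other splicing target of Tra, was not called between the strains at either temperature. It was at 11.4, 14.6 and 11.4 CPM in ADAR hypomorph flies and at 13.5, 11.9 and 11.9 CPM in WT flies at 29°C. At 18°C its level was 11.3, 17.4 and 14.9 CPM in ADAR hypomorph flies and 21.5, 18.1 and 13.5 CPM in WT flies. The strains overlapped at both temperatures, with log2 fold changes of 0.01 at 29°C (95% interval -0.38 to 0.41) and -0.25 at 18°C (-0.65 to 0.14). In WT flies the libraries at 29°C lay at or below 13.5 CPM and those at 18°C at or above it, with 86 counts (13.46 CPM) and 93 counts (13.54 CPM) in the libraries nearest to each other. The log2 fold change there was -0.50 (standard error 0.19, adjusted p = 0.0523 by edgeR's quasi-likelihood F test, Benjamini-Hochberg adjusted), just outside the threshold, and dsx was called in 10 of the 20 alternatives, with -0.67 (adjusted p = 0.0150 by edgeR) without WT replicate 3 at 18°C. In ADAR hypomorph flies it was -0.23 (95% interval -0.62 to 0.16). Averaged over the strains, a contrast added after the data had been seen, dsx was lower at 29°C (log2 fold change -0.36, adjusted p = 0.0327 by edgeR), where 46.1% of all genes were called. The ratio fru over dsx was 1.06 to 1.68 in ADAR hypomorph flies against 0.721 to 0.970 in WT flies at 29°C, without overlap, and 1.31 to 2.66 against 0.898 to 1.40 at 18°C, with overlap.

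ix was at 10.9, 12.4 and 11.9 CPM in ADAR hypomorph flies and at 12.7, 11.4 and 11.8 CPM in WT flies at 29°C. At 18°C its level was 12.3, 10.1 and 10.8 CPM in ADAR hypomorph flies, all below the 13.4, 13.0 and 15.1 CPM of WT flies. The log2 fold change at 18°C was -0.34 (standard error 0.13, adjusted p = 0.0794 by edgeR's quasi-likelihood test), which missed the threshold. WT flies at 29°C also lay below WT flies at 18°C without overlap (log2 fold change -0.22, adjusted p = 0.233 by edgeR). dsx over ix, the counts of the pair whose proteins act together in females, overlapped between groups in all 4 comparisons.

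In the difference of the temperature responses none of the 5 genes was called, at an adjusted or at an unadjusted p under 0.05, and none was called by DESeq2. In that comparison 2.32% of all genes were called. For this contrast the interval of fru reached 0.77 on the log2 scale, that of dsx 0.82, that of tra 0.72 and that of ix 0.71, so differences of that size lay within the intervals.

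Heads are mixtures of cells, and in bulk RNA fewer cells of a type and less RNA per cell cannot be told apart. The sum of 4 neuronal markers (elav, nSyb, Syt1 and brp), in whose cells fru and dsx are known to act, was 527 to 544 CPM in ADAR hypomorph flies at 29°C, 430 to 460 CPM in ADAR hypomorph flies at 18°C, 382 to 436 CPM in WT flies at 29°C and 349 to 357 CPM in WT flies at 18°C. nSyb carried the most of this sum, at 307 to 323 CPM in ADAR hypomorph flies against 186 to 228 CPM in WT flies at 29°C, and was the only one of the 4 called between the strains at that temperature (log2 fold change 0.60, beside 0.10 for Syt1). The sum was higher in ADAR hypomorph flies, as fru was, and higher at 29°C, where fru was lower. As a percentage of these summed counts, fru was 2.96 to 3.53% in ADAR hypomorph flies against 2.32 to 2.65% in WT flies at 29°C, which did not overlap, and 5.21 to 6.54% against 4.91 to 5.41% at 18°C, which did. The strain difference of fru per neuronal marker count was 0.41 on the log2 scale at 29°C and 0.12 at 18°C, against 0.80 and 0.45 in the fitted model. The temperature difference widened by the same measure, to -0.77 in ADAR hypomorph flies and -1.06 in WT flies. tra per neuronal marker count remained higher at 29°C without overlap in both strains. Per neuronal marker count, Sxl at 29°C (-0.45) and ix at 29°C (-0.42) and 18°C (-0.65) were lower in ADAR hypomorph than in WT flies without overlap. Neither gene was called between the strains in the fitted model. dsx and tra overlapped between the strains at both temperatures by this measure, as did Sxl at 18°C. The part of neuron content in these differences was not tested further.

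The photoreceptor markers (ninaE, trp, ninaC and Arr2) summed to 30300 to 32379 CPM in ADAR hypomorph flies against 9815 to 10753 CPM in WT flies at 29°C, and to 22198 to 22646 CPM against 5821 to 6486 CPM at 18°C. The fat body markers (Lsp2, Rfabg and FASN1) summed to 2412 to 2604 CPM against 3257 to 3440 CPM at 29°C, and to 1930 to 2190 CPM against 4692 to 5034 CPM at 18°C. Glial markers (repo, moody and nrv2) summed to 364 to 392 CPM in ADAR hypomorph flies against 306 to 321 CPM in WT flies at 29°C, and to 499 to 519 CPM against 389 to 447 CPM at 18°C. The glial sums ran in the same order of groups as fru, highest in ADAR hypomorph flies at 18°C and lowest in WT flies at 29°C, and their part in the fru values was not tested.

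**Figure D4:**
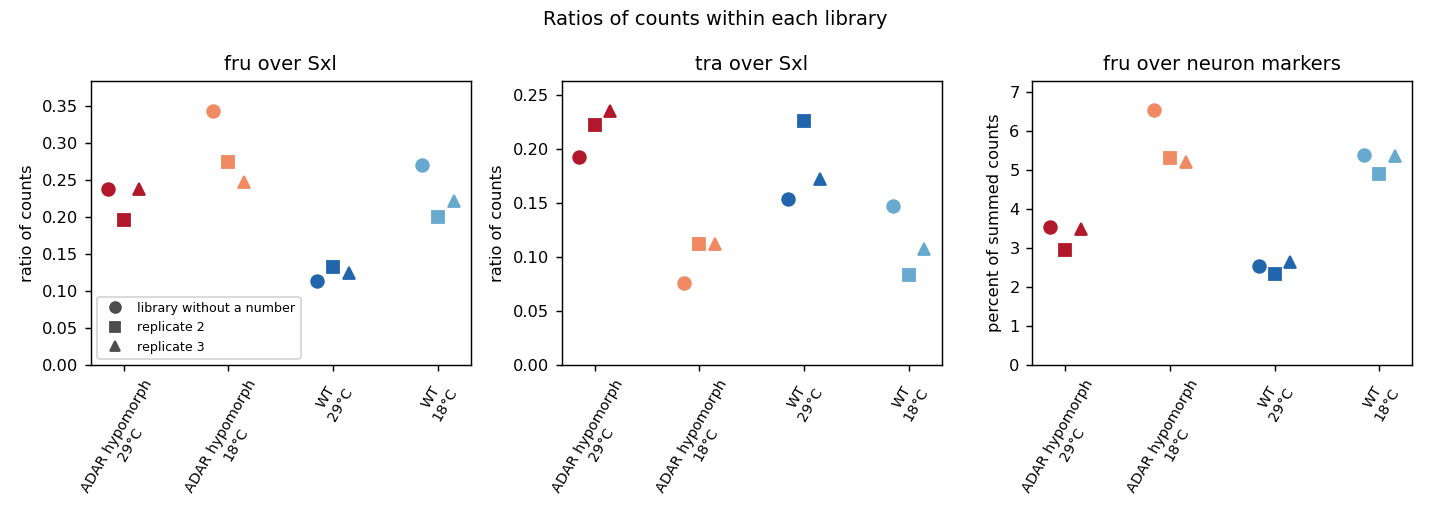
Ratios of counts within each of the 12 libraries (y axes, from 0) for fru over Sxl, tra over Sxl and fru as a percentage of the summed neuronal markers, by group on the x axis, with shapes for the replicates. At 29°C fru stays higher in ADAR hypomorph flies against both denominators (0.196 to 0.238 against 0.113 to 0.132 for Sxl), and at 18°C the strains overlap.

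Because the sex of the flies is not labelled, markers of female and male heads were set beside these genes. The female markers Yp1, Yp2 and Yp3, the yolk proteins, and fit, a female-biased fat body gene, were all detected in every library, and their sum was 44844 to 51797 CPM in ADAR hypomorph flies against 79813 to 83664 CPM in WT flies at 29°C. At 18°C it was 20793 to 32112 CPM against 97299 to 105848 CPM. All 4 were called lower in ADAR hypomorph flies at both temperatures. Of the male markers, roX1 and roX2 are noncoding RNAs of the complex that raises the output of the male X chromosome, and roX1 had at least 2175 counts in every library. With to and Obp99b, both male-biased, they summed to 568 to 704 CPM in ADAR hypomorph flies against 577 to 695 CPM in WT flies at 29°C, and to 1000 to 1505 CPM against 798 to 1122 CPM at 18°C, which overlapped at both temperatures. roX1 carried most of this sum, and the 4 male markers did not move together between the strains. roX2 was called higher in ADAR hypomorph flies at both temperatures (log2 fold change 0.64 at 29°C and 1.58 at 18°C), to at 29°C (0.94, beside 0.26 at 18°C) and roX1 at 18°C (0.71, beside -0.31 at 29°C), while Obp99b was called lower at 18°C (-0.95, beside 0.53 at 29°C). RNA typical of both sexes was thus present in every library. The male and female shares of the pools are not given, and their part in the differences of fru, tra, dsx, Sxl and ix was not tested.

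Around the 5 genes, 75 further genes of the cascade, its splicing partners and its targets were taken from lists. Of these, 74 were in the table and 52 passed the filter. Of the 52, 14 were called higher and 4 lower at 29°C in ADAR hypomorph flies (34.6%, against 32.2% of all genes), and 14 higher and 8 lower in WT flies (42.3%, against 33.4%). Between the strains, 7 were called higher and 9 lower in ADAR hypomorph flies at 29°C (30.8%, against 19.0%). At 18°C, 11 were called higher and 7 lower (34.6%, against 26.2%). At 29°C, 1 of those higher and 7 of those lower came from the 9 tested targets of Dsx and Fru in the head. At 18°C these targets gave 1 of those higher and 6 of those lower. The lists were chosen with earlier results of these data known. The median log2 fold change of the 52 was -0.06 in ADAR hypomorph flies and 0.05 in WT flies between temperatures, and 0.05 at 29°C and 0.20 at 18°C between the strains, beside medians of all genes of -0.01, 0.01, 0.00 and 0.01 in the same order of comparisons.

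**Figure D5:**
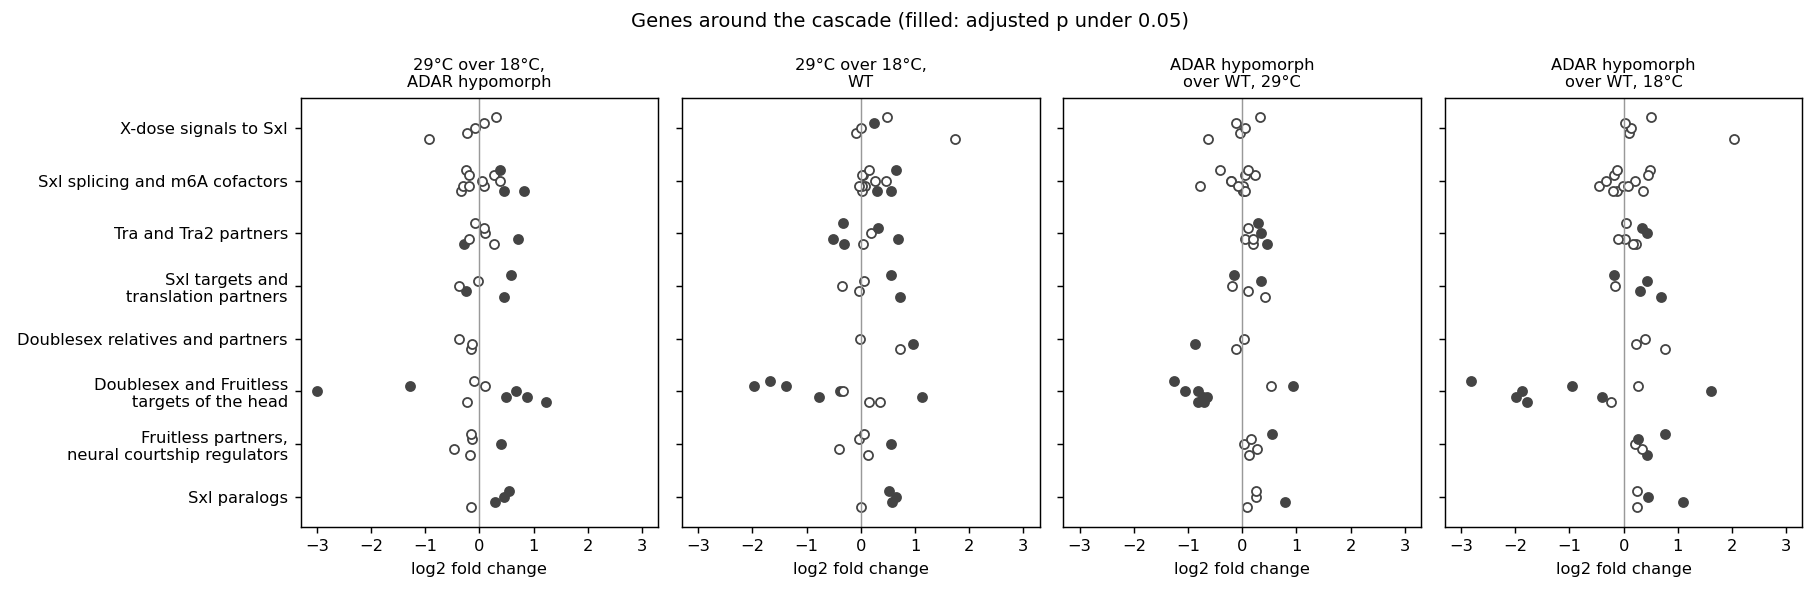
Log2 fold changes (x axis) of the tested genes of 8 lists around the cascade (rows), for 29°C over 18°C within each strain and ADAR hypomorph over WT at both temperatures (panels), with 1 point per gene, filled for an adjusted p under 0.05. Splicing partners lie within a log2 fold change of 1 of 0, and the widest spread, down to -2.99 for Cyp6a20, is among the Doublesex and Fruitless targets of the head.

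Genes that switch Sxl on in the early embryo by counting X chromosomes, and their modifiers, made up a list of 9, of which 5 were tested. Among them only emc, a helix-loop-helix inhibitor, was called in the 4 pairwise comparisons. It was called only between temperatures in WT flies (log2 fold change 0.25, adjusted p = 0.0123 by edgeR). None of the 5 was called in the difference of the temperature responses. Another list held 12 genes that help Sxl to control splicing or that belong to the m6A machinery acting on Sxl mRNA. All 12 were tested, and 3 were called higher at 29°C in each strain, with none lower. Of all genes, 15.6% were called higher at 29°C in ADAR hypomorph flies and 16.1% in WT flies. In either direction the shares were 32.2% and 33.4%. snf, a protein of the spliceosome that Sxl needs for autoregulation, was called in both (log2 fold change 0.45 in ADAR hypomorph flies and 0.31 in WT flies). U2af38, the small subunit of the factor that binds the 3' splice site, was also called in both (0.82 and 0.56 in the same order). U2af50, its large subunit and the factor that Sxl blocks on tra pre-mRNA, was called in ADAR hypomorph flies (0.38) and not in WT flies (0.15), and Hakai, of the m6A complex, in WT flies (0.66) and not in ADAR hypomorph flies (-0.24). The difference between the strains in these responses was not called for U2af50 (adjusted p = 0.411 by edgeR) or for Hakai (adjusted p = 0.0956 by edgeR). None of the 12 was called between the strains at either temperature, beside 19.0% of all genes at 29°C and 26.2% at 18°C.

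Among the partners of Tra in the splicing of dsx and fru, tra2, which binds RNA together with Tra, was not called between temperatures (log2 fold change 0.27 in ADAR hypomorph flies and 0.04 in WT flies). Between the strains tra2 was called at 29°C, where it was at 10.5 to 11.6 CPM in ADAR hypomorph flies and at 7.69 to 8.30 CPM in WT flies (log2 fold change 0.46, adjusted p = 0.0264 by edgeR), and not at 18°C (0.24, adjusted p = 0.264). B52, another SR protein, was called higher in ADAR hypomorph flies at both temperatures (0.34 at 29°C and 0.44 at 18°C). Rsf1, a repressor of SR proteins, was called lower at 29°C in both strains (-0.29 in ADAR hypomorph flies and -0.31 in WT flies). SF2 was called higher at 29°C in WT flies (0.31) and higher in ADAR hypomorph flies at 18°C (0.34). x16 was called lower at 29°C in WT flies (-0.33) and higher in ADAR hypomorph flies at 29°C (0.30). Doa, a kinase of SR proteins, was called lower at 29°C in WT flies (-0.51). SF2, x16 and Doa were not called between temperatures in ADAR hypomorph flies. None of the 7 partners tested was called in the difference of the temperature responses.

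Sxl also represses the translation of msl-2, the male-specific subunit of the dosage compensation complex, together with the RNA-binding protein Unr. msl-2 mRNA was at 13.0 to 13.7 CPM at 29°C and 8.21 to 10.5 CPM at 18°C in ADAR hypomorph flies, and at 9.06 to 11.3 CPM at 29°C and 4.95 to 6.94 CPM at 18°C in WT flies. It was called higher at 29°C in both strains (log2 fold change 0.46 in ADAR hypomorph flies and 0.73 in WT flies) and higher in ADAR hypomorph flies at 18°C (0.68, adjusted p = 0.00898 by edgeR). At 29°C the strains did not overlap in msl-2, and the call was missed (0.41, adjusted p = 0.0758 by edgeR). Unr was called lower at 29°C in ADAR hypomorph flies (-0.24) and higher in ADAR hypomorph flies at 18°C (0.31). Unr was not called between temperatures in WT flies, between the strains at 29°C, or in the difference of the temperature responses. pAbp, the poly(A)-binding protein, was called higher at 29°C in both strains (0.58 in ADAR hypomorph flies and 0.56 in WT flies) and lower in ADAR hypomorph flies at both temperatures (-0.16 at 29°C and -0.18 at 18°C). Nf1 was called higher in ADAR hypomorph flies at both temperatures (0.34 at 29°C and 0.43 at 18°C).

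Of the 4 relatives of Sxl by sequence, ssx, the closest, was not called in any comparison (log2 fold changes of -0.15 to 0.24), as Sxl was not. The neuronal RNA-binding proteins Rbp9, fne and elav were called higher at 29°C in both strains. Of all genes, 15.6% were called higher in ADAR hypomorph flies and 16.1% in WT flies. elav had log2 fold changes of 0.54 in ADAR hypomorph flies and 0.53 in WT flies, and fne of 0.45 and 0.65 in the same order. Rbp9 was at 308 to 321 CPM in ADAR hypomorph flies against 171 to 189 CPM in WT flies at 29°C, and at 251 to 267 CPM against 117 to 126 CPM at 18°C. It was called higher in ADAR hypomorph flies at both temperatures, by 0.79 and 1.09 on the log2 scale.

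The list of Fruitless partners and other regulators of courtship in neurons gave 5 tested genes. retn, a transcription factor that represses male courtship in females, was at 18.6 to 23.1 CPM in ADAR hypomorph flies against 12.9 to 15.7 CPM in WT flies at 29°C, and at 20.3 to 26.0 CPM against 13.2 to 13.7 CPM at 18°C. It was called higher in ADAR hypomorph flies at both temperatures (log2 fold change 0.56, adjusted p = 0.00648, and 0.76, adjusted p = 0.000608 by edgeR) and in neither temperature comparison. bon, a cofactor with which Fru forms a complex on chromatin, and lola, a BTB protein, were called higher in ADAR hypomorph flies at 18°C (0.44 and 0.27), beside 0.13 and 0.17 at 29°C, and the difference between the temperatures was not called for bon (adjusted p = 0.493) or lola (adjusted p = 0.770) in edgeR's test. The gene of the heterochromatin protein HP1a, which joins Fru complexes, was called higher at 29°C in both strains (0.39 in ADAR hypomorph flies and 0.56 in WT flies), the direction opposite to fru. Of 14 pheromone receptors and other courtship sensors, 13 were in the table and only lush and SPR, the sex peptide receptor, passed the filter, and neither was called in the 4 comparisons. Of the Doublesex relatives and partners only 3 of 6 were tested. bab1, which Dsx regulates together with Abd-B in the abdomen, was called higher at 29°C in WT flies (0.96) and lower in ADAR hypomorph flies at 29°C (-0.87). It had only 10 to 39 counts a library. In ADAR hypomorph flies bab1 averaged 2.57 CPM at 29°C and 2.88 CPM at 18°C and was not called between temperatures. The difference of the temperature responses was not called for bab1 either.

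Of the targets of Dsx and Fru in the head, 8 of 9 tested genes were called between the strains at 29°C and 7 of 9 at 18°C, beside 19.0% and 26.2% of all genes. This list holds the 4 female markers above and shares Obp99b and to with the male markers. sxe2, a target in the sex-biased head fat, was called higher at 29°C in both strains (log2 fold change 0.88 in ADAR hypomorph flies and 1.14 in WT flies) and lower in ADAR hypomorph flies at both temperatures (-0.66 at 29°C and -0.40 at 18°C). Cyp4d21, expressed in that tissue and linked to male courtship, was called lower in ADAR hypomorph flies at 29°C (-0.82). It was not called between the strains at 18°C or in the difference of the temperature responses. Cyp6a20, a cytochrome P450 linked to male aggression, averaged 3.54 ± 1.49 CPM in ADAR hypomorph flies and 7.39 ± 1.27 CPM in WT flies at 29°C, and 28.1 ± 3.91 CPM in ADAR hypomorph flies and 9.02 ± 3.23 CPM in WT flies at 18°C (SD, n = 3 each). It was thus called in opposite directions between the strains at the temperatures (-1.05 and 1.61), and it was called lower at 29°C in ADAR hypomorph flies (-2.99) and not in WT flies (-0.33).

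tra overlaps l(3)73Ah on the opposite strand, and whether the counting used strand is not stated in the sources used here. l(3)73Ah was at 20.3 to 22.7 CPM at 29°C and 19.7 to 20.9 CPM at 18°C in ADAR hypomorph flies, and at 18.5 to 23.2 CPM at 29°C and 15.6 to 21.5 CPM at 18°C in WT flies. It was not called between temperatures (log2 fold change 0.09 in ADAR hypomorph flies and 0.19 in WT flies). Of the genes that flank tra, CG32163 (0.70 in ADAR hypomorph flies and 0.53 in WT flies) and CG32164 (0.32 and 0.51 in the same order) were called higher at 29°C in both strains, as tra was. UQCR-C2 (0.23) and Syx8 (-0.28) were called between temperatures in ADAR hypomorph flies. dsx overlaps lds on the opposite strand, which was far less abundant at 2 to 19 counts a library. CD98hc, which flanks dsx on the same strand, was called lower at 29°C in both strains (-0.63 in ADAR hypomorph flies and -0.54 in WT flies). Of the genes next to fru, CG7685, CG31122, CG43210 and fray were tested, and none of these 4 was called in any comparison. Of all genes, 32.2% were called between temperatures in ADAR hypomorph flies and 33.4% in WT flies. Some neighbours of Sxl and ix, themselves not called, moved as well. CG4615, beside Sxl, averaged 29.8 CPM at 29°C and 47.6 CPM at 18°C in ADAR hypomorph flies. In WT flies it averaged 26.1 and 43.5 CPM. Beside ix, san had log2 fold changes of 0.54 and 0.44, while CG13204 overlapped between temperatures in both strains. The part of neighbouring genes in the values of tra and dsx was not tested.

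Among 6478 genes with a mean of at least 10 CPM, the 3 whose log2(CPM + 1) followed each member most closely over the 12 libraries were named as a description. For fru they were Inx2, a gap junction innexin (Pearson's r 0.98), blow (0.97) and the noncoding CR31451 (0.97). For tra they were CG10754 (0.97), san, an acetyltransferase needed for sister chromatid cohesion (0.96), and CG5439 (0.96). For dsx they were Dhpr (0.90), hpo (0.90) and CG6435 (0.89), and for ix CG8128 (0.88), CG10175 (0.85) and CG8199 (0.84). Sxl had the loosest matches, with CLIP-190 (0.82), CG9776 (0.82) and CG16779 (0.76). No member was closely matched by another, the widest values being the -0.58 of fru and tra and the -0.42 of dsx and tra.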

How the data were processed

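Total RNA of fly heads was turned into stranded, ligation-based 3' DGE libraries, which the authors aligned to dm3 with TopHat and summed by gene with ESAT. The deposited values are whole-number counts of 15423 genes without normalization. No molecular identifiers are named, so copies made by PCR could not be removed. The 95% intervals come from the standard errors of the fitted edgeR model, which include the spread between libraries. Another 4 columns, of a temperature outside the labelled samples, were not used here. In each group 1 column has no replicate number and served as an unnumbered replicate.

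Genes were kept by filterByExpr (minimum count 10) with the 4 groups, which left 9553 of the 14611 genes with at least 1 count. edgeR 4.0.16 in R 4.3.3 fitted 1 quasi-likelihood model with TMM scaling to the 12 libraries, and 5 contrasts were tested, 29°C over 18°C in each strain, ADAR hypomorph over WT at either temperature, and the temperature effect of ADAR hypomorph minus that of WT flies. Benjamini-Hochberg adjustment ran over the 9553 genes, and a gene was called at an adjusted p under 0.05. The biological coefficient of variation was 12.9%. Groups of 3 libraries allow no exact permutation p below 0.1. The members, lists, markers and named genes were chosen with earlier results of these data known. Genes named are the 5 members, Adar, the list genes that were called (for a list with no call, its most abundant gene), the markers, and the 3 genes most correlated with each member. A gene of the lists is not reported here by name. The symbol tsx, in 2 lists, is a synonym of Obp99b and was counted once. Neighbours and transcripts came from Ensembl gene models of another build, matched by symbol, so no coordinates are given.

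Libraries of a group differed by a chi-square per degree of freedom of 3.20 to 9.00, more than sampling noise. The model was tested on simulated counts with 200 genes shifted by 1 on the log2 scale. It recovered 177 to 188 in the 4 pairwise comparisons and 118 in the difference. Only genes above a minimum mean level were shifted, and the shift was larger than any change fitted for the members. Recovery of smaller changes was not simulated. Alternatives were DESeq2 1.42.0, its size factors in edgeR, other filters, the compared groups only, the replicate block, total-count scaling, the study's criterion and each library left out in turn. Figures were drawn with matplotlib 3.10.9 in Python 3.11.15.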

Additional observations from a re-analysis of the deposited data

Results flagged for a closer look

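None of the 5 sex determination genes was called for a difference between the strains in the response to temperature, but 9 of the genes set beside them were, by edgeR's quasi-likelihood test of the difference (ADAR hypomorph minus WT, log2 scale, Benjamini-Hochberg adjustment). Of the 52 tested genes of the lists, 5 were called with the larger value in ADAR hypomorph flies and 1 with the smaller (11.5%). Across all genes 2.32% were called in this test. The remaining calls were all 3 fat body markers. Lists and markers were chosen with earlier results of these data known. Of the targets and sex markers, Yp1 differed by 1.07 (adjusted p = 0.00145), Yp2 by 1.26 (adjusted p = 0.000414), Yp3 by 1.07 (adjusted p = 0.00153), fit by 1.57 (adjusted p = 0.000206) and Obp99b by 1.47 (adjusted p = 0.00945), all in edgeR's test. Cyp6a20 differed by -2.66 (adjusted p = 0.00106 by edgeR), the only one of the 9 with the smaller value in ADAR hypomorph flies. Of the fat body markers, Lsp2 differed by 5.04 (adjusted p = 5.51e-08), Rfabg by 0.42 (adjusted p = 0.0120) and FASN1 by 0.44 (adjusted p = 0.0252), again by edgeR.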

How the results depend on the processing

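The strain call of fru at 29°C, its temperature call in WT flies and both temperature calls of tra were kept in all 20 alternatives that used the adjusted p alone. The study's criterion on the fold change was set aside in that count. Of the 20, 12 left out 1 library each, part of them from groups outside the comparison. Applied to the edgeR estimates, it left 0 of the 5 genes in each of the 4 pairwise comparisons. Leaving out 1 library at a time gave 1 to 2 called genes between temperatures in ADAR hypomorph flies, 2 to 3 in WT flies, 1 between the strains at 29°C, 0 to 1 at 18°C and 0 in the difference. Scaling by total counts, chosen after seeing the data, put the median log2 fold change of all genes at -0.20 for temperature in ADAR hypomorph flies and at 0.20 for the strains at 18°C, where it called 2 genes, Sxl (0.31) besides fru, and it also called Sxl between temperatures in ADAR hypomorph flies (-0.33). Replicate numbers shared by the groups were not shown to pair libraries, since only 2 numbers were shared. Between the strains at 29°C deviations of same-numbered libraries correlated by 0.23 and 0.23, against -0.30 and -0.15 for other numbers, and in the other comparisons same-numbered libraries correlated by -0.06 to 0.08. In the 8 numbered libraries the replicate block called 0 genes between the strains at 18°C (0 without the block, where fru had an adjusted p of 0.156 by edgeR), and 2 between temperatures in ADAR hypomorph flies (1 without it). Small changes that were not called reversed. Sxl between temperatures in WT flies was -0.062 with the block, -0.054 without it, -0.0054 with total counts and -0.045 to 0.14 with a library left out. ix between the strains at 29°C was 0.075 with the block, 0.071 without it, 0.032 with total counts and -0.066 to 0.030 with a library left out, and between temperatures in ADAR hypomorph flies it was -0.088 with total counts. dsx between the strains at 18°C was 0.039 with the block and 0.038 without it. tra between the strains at 18°C was -0.010 with DESeq2, -0.013 with its size factors in edgeR and -0.13 to 0.14 with a library left out, and in the difference it was -0.095 with the block and -0.094 without it. With a library left out, strain effects at 29°C were -0.12 to 0.076 for dsx and -0.16 to 0.025 for Sxl, and the male marker sum differed by -0.040 to 0.12. The cause of these reversals was not tested. The lists around the cascade had 8 called genes between the strains at 29°C and 10 at 18°C with the block, and 32 at 18°C with total counts. Counts of 34 to 188 a library for fru and tra limit what smaller changes could be seen.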
